A study of Mus musculus with 8 samples.

Results

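The regions described here are promoter PU.1 peaks that were called in X18.1.1 leukaemia cells carrying an empty vector and were not called once inducible wild-type PU.1 was present. They were chosen by the measured values themselves: a 400-bp peak of the vector-line PU.1 list was taken when it shared not a single base with any PuER-line PU.1 peak and when no more than 1000 bp separated its centre from a protein-coding transcript start. Of 5288 PU.1 peaks in vector cells 852 met both conditions. Absence from the PuER list is therefore what defines these regions and is no result about them, and since the lists hold positions without heights, a weaker PU.1 signal in the PuER line cannot be told apart from none.

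PU.1, encoded by Spi1, is the ETS family transcription factor that drives macrophage and granulocyte differentiation, and it reads a purine-rich DNA site built on the ETS core GGAA, usually with an adenine-rich flank upstream of the core. Other ETS factors, such as ETS1, ELF and GABP proteins, share the core but favour cytosines before it, and their sites are a familiar element of the CpG-rich promoters of widely expressed genes, together with GC boxes bound by SP and KLF proteins. CEBPA is a leucine-zipper factor that works with PU.1 on many myeloid enhancers and promoters and reads a site made of TTGC half-sites.

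X18.1.1 is a mouse acute myeloid leukaemia line that arose after irradiation; it has lost 1 Pu.1 allele by deletion, and the remaining allele carries a missense mutation in the DNA-binding domain together with a deletion affecting the PEST domain, so that both lines compared share the mutant PU.1. The cells were transduced with the retroviral vector MSCV-puro, either empty (EV) or coding for PuER, in which wild-type PU.1 is joined to the hormone-binding domain of the oestrogen receptor and becomes active on addition of hydroxytamoxifen (OHT), and both received 100 nM OHT for 2 h according to the labels. Each line was grown from 1 clone, so a difference between clones and the presence of PuER cannot be told apart, and the lists do not separate binding by mutant PU.1 from binding by PuER. The 8 samples include 4 with peak lists, PU.1 and CEBPA chromatin immunoprecipitation in each line with 1 library each; those for H3K27Ac and IgG were not used here. The lists hold 5288 and 15683 PU.1 peaks in the vector and PuER lines and 26119 and 20583 CEBPA peaks. Without replicates no difference between the lines has a replicate check, depth is unknown, and the 95% intervals below are exact binomial (Clopper-Pearson) or order-statistic intervals that cover only counting error over regions or genes, which are not replicates of a condition. Leukaemia cell identity could not be checked, since the lists hold no expression values.

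Of all vector PU.1 peaks 43.8% were called only in the vector line, whereas of the 1296 vector PU.1 peaks at promoters 65.7% were, these being the 852 regions, and the other 444 were shared with the PuER line; the rule itself fixes these shares. The remaining 1466 vector-only peaks lay away from promoters, and 1091 promoter peaks were called only in the PuER line. These classes, and 1 window of 400 bp at the outermost start of every protein-coding gene (21921 windows), serve below as comparisons. By chromosome the vector-only share of promoter peaks ran from 55.2% of 67 peaks on chromosome 3 to 77.3% of 66 on chromosome 9 among chromosomes with at least 60 promoter peaks.

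The ETS sites of the vector-only promoter peaks are printed first because the bases before the core are what the comparison of the classes turns on. Below, GGAAGT is called an ETS site, read on either strand. The capitals mark this site with the 2 bases before it, in 30-base windows from the GRCm38 (mm10) reference, 5′ to 3′ on the strand that reads GGAAGT. Shown are the sites within 14 bp of the peak centre among the genes the naming rule picks, which include subunits of the proteasome (Psmd13, Psmb1), RNA polymerase II (Polr2g), the spliceosome (Lsm2, Prpf4) and the mitochondrial import machinery (Timm10b, Timm23).
Anapc4 (chr5:52834043-52834072, minus strand): gtcttcgcgaGAGGAAGTgagtggcacagc
Lsm2 (chr17:34981849-34981878, plus strand): gtgggggggaCAGGAAGTtccgcccctcta
Timm10b (chr7:105640336-105640365, plus strand): cagagatttgGCGGAAGTgacatgctctct
Zfp445 (chr9:122865987-122866016, plus strand): ctctgcgagaGCGGAAGTacgcttctgagg
Polr2g (chr19:8798491-8798520, minus strand): ggtctctgcgTGGGAAGTtctgggcgctgc
Eif4e2 (chr1:87213945-87213974, plus strand): acccggtagaGCGGAAGTcactccgtgagg
Psmd13 (chr7:140882392-140882421, minus strand): gggatggcgcACGGAAGTgctcgctcactt
Ccdc157 (chr11:4160307-4160336, plus strand): cggggcggggCTGGAAGTgcgaaacggcga
Plcg2 (chr8:117498618-117498647, minus strand): agccccaggaGAGGAAGTggccggcggctg
Prpf4 (chr4:62408779-62408808, minus strand): gcctagcaaaGTGGAAGTgcgtcactggcc
Timm23 (chr14:32201922-32201951, plus strand): tgtgtgcggcCCGGAAGTgggaagcgcgag
Pms1 (chr1:53297021-53297050, plus strand): ccgcccacagCAGGAAGTgggattggcgcg
Psmb1 (chr17:15498301-15498330, minus strand): ggcgagggagGCGGAAGTggaccggtcccg
Noc2l (chr4:156236003-156236032, plus strand): cattctgggcCCGGAAGTgcggcgcacgcg

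Of these 14 sites, 4 read GCGGAAGT, 2 each read CCGGAAGT, CAGGAAGT and GAGGAAGT, and the remaining 4 each had a different pair of bases before the core. For comparison, the promoter peaks of myeloid-list genes that were shared by both lines had their central sites as follows, with the 4 nearest to the peak centre shown. The receptors Tlr6 and Tlr4 sense microbial products, S100a8 codes for a granule-associated calcium-binding protein and Csf2ra for the GM-CSF receptor alpha chain.
Tlr6 (chr5:64960965-64960994, plus strand): gcaaacataaGAGGAAGTcttctccgaact
S100a8 (chr3:90668887-90668916, minus strand): ttctgagtctGAGGAAGTgggagtgttgga
Tlr4 (chr4:66827681-66827710, minus strand): tatattcaaaGAGGAAGTgagagtgccaac
Csf2ra (chr19:61227734-61227763, minus strand): gactggagaaAAGGAAGTggctgcagctga

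The corresponding 4 sites at promoter peaks called only in the PuER line belong to Cebpe, a granulocyte transcription factor, the Fc receptor genes Fcer1g and Fcgr2b, and Tlr9.
Cebpe (chr14:54713084-54713113, minus strand): aagcctacaaGAGGAAGTggacccgagaga
Fcer1g (chr1:171234690-171234719, plus strand): gtcggagcagGAGGAAGTgaggggaaaggg
Fcgr2b (chr1:170976085-170976114, plus strand): aagtccaaatGGGGAAGTgaaaagaaacgg
Tlr9 (chr9:106222596-106222625, minus strand): tcagagaattGAGGAAGTgacactttcact

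Of these 8 comparison sites 6 read GAGGAAGT. They were picked for their myeloid genes after the data had been seen, so gene type and peak class differ together in the printed sets. They overstate the class-wide counts, in which GA preceded 29.7% of shared and 31.3% of PuER-only sites.

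Across all ETS sites in the central 80 bp of the vector-only promoter peaks (309 sites), the bases before GGAAGT were CC in 17.2% (95% interval 13.1 to 21.8), GC in 16.8% (12.8 to 21.5), CA in 14.9% (11.1 to 19.4) and GA in 11.97% (8.57 to 16.1). At shared promoter peaks GA preceded 29.7% of 246 sites (24.0 to 35.8) and CC 6.10% (3.45 to 9.86), whereas GC with 14.6% (10.5 to 19.7) and CA with 16.7% (12.2 to 21.9) overlapped the vector-only intervals. At PuER-only promoter peaks GA preceded 31.3% of 527 sites (27.4 to 35.5), CC 1.90% (0.914 to 3.46), GC 3.04% (1.75 to 4.88) and CA 9.30% (6.96 to 12.1). In the 21921 promoter windows taken without regard to PU.1, CC led with 27.3% of 2425 sites (25.6 to 29.2) and GA had 10.7% (9.48 to 11.98). Vector-only peaks away from promoters had GA before 6.76% of 429 sites (4.57 to 9.56), CC before 2.56% (1.29 to 4.54) and CA before 38.5% (33.8 to 43.2). The GA share of the vector-only promoter peaks thus lay close to that of promoters at large and below that of shared and PuER-only promoter peaks, without overlap of the intervals; it was low in both vector-only classes, whereas CC and CA differed between them. GG followed GGAAGT in 34.0% of the sites of the vector-only class (28.7 to 39.6), close to the 30.1% at shared promoter peaks (24.4 to 36.2). The sites read along the direction of transcription in 55.7% (49.9 to 61.3), an interval that includes equal use of both strands.

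In the central 80 bp an ETS site was found at a smaller share of these regions than of the other promoter peaks. The central 80 bp held at least 1 in 278 of the 852 vector-only promoter peaks, 32.6% (29.5 to 35.9), against 49.5% of shared (44.8 to 54.3) and 42.4% of PuER-only promoter peaks (39.5 to 45.4), 27.8% of vector-only peaks away from promoters (25.5 to 30.2), 9.92% of all promoter windows (9.52 to 10.3) and 4.58% of windows 2000 bp to either side of the vector-only promoter peaks (3.63 to 5.68). Over the whole 400 bp 353 of the 852 (41.4%) had no ETS site, 349 had 1, 118 had 2 and 32 had 3 or more. At this width 58.6% of the vector-only promoter peaks held a site (55.2 to 61.9), against 73.4% of shared promoter peaks (69.1 to 77.5). PuER-only promoter peaks had 62.5% (59.6 to 65.4), so that their interval overlapped that of the vector-only class. Sites concentrated at the peak centre, with 11.4 and 10.8 sites per 100 peaks in the 2 middle 20-bp bins against 1.06 in an outermost bin. The same bins reached 18.7 and 20.3 at shared peaks, and 3.35 and 3.25 across all promoters.

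**Figure D1:**
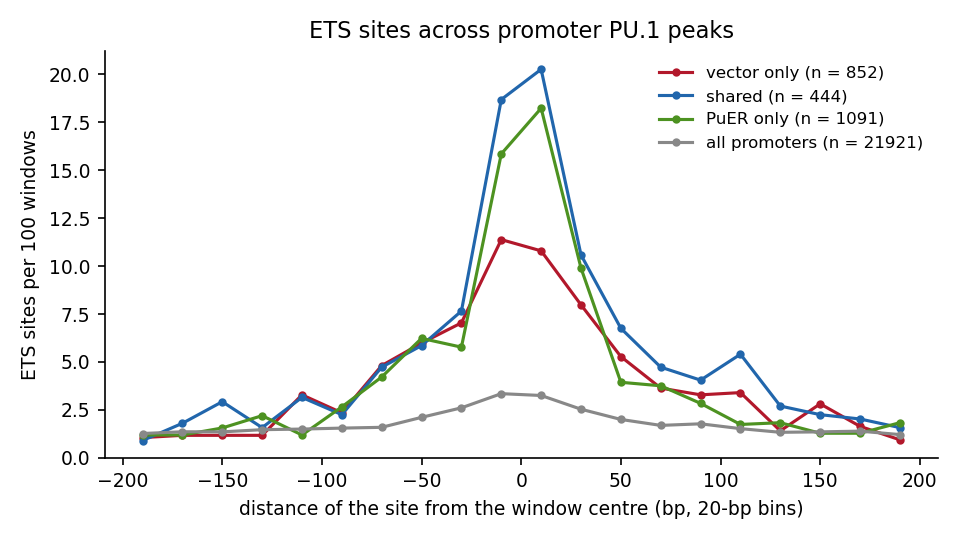
Number of GGAAGT sites per 100 windows (vertical axis) in 20-bp bins of distance from the window centre (horizontal axis, bp) for vector-only, shared and PuER-only promoter PU.1 peaks and for all promoters centred on the start. The vector-only class peaks at the centre at 11.4 sites per 100, between all promoters (3.35) and the shared class (20.3).

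The PU.1-type sequence GAGGAAGT lay in the central 80 bp of 4.23% of the vector-only promoter peaks (2.98 to 5.80), 15.8% of shared (12.5 to 19.5), 14.8% of PuER-only (12.7 to 17.0), 1.91% of vector-only peaks away from promoters (1.27 to 2.75) and 1.15% of all promoters (1.01 to 1.29). The ETS1-type sequences CCGGAAGT and CAGGAAGT, which like the PU.1 type contain GGAAGT and are counted within it, lay in 11.03% (9.01 to 13.3), 12.6% (9.67 to 16.1), 4.86% (3.66 to 6.31), 11.2% (9.62 to 12.9) and 4.02% (3.76 to 4.29) of these classes in the same order. A low PU.1-type share was therefore found in both vector-only classes. For vector-only and shared promoter peaks the intervals overlapped in the ETS1 type and did not in the PU.1 type. The ETS-IRF composite GGAANNGAA, which PU.1 binds together with interferon regulatory factors and which can overlap an ETS site, lay in 2.46% of the vector-only class (1.53 to 3.74). All promoters had 1.67% (1.51 to 1.85) and vector-only peaks away from promoters 3.89% (2.96 to 5.01), both with overlapping intervals. Shared promoter peaks had 7.21% (4.98 to 10.0) and PuER-only promoter peaks 14.2% (12.2 to 16.4). The most frequent 8-base words in the central 80 bp of the vector-only class, either strand, were GGAAGTGG in 12.1%, CGGAAGTG in 10.3% and AGGAAGTG in 9.74%. The last of these stood in 24.3% of shared promoter peaks, and CGGAAGTG in 8.33%.

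A GC box (GGGCGG) lay in the central 80 bp of 31.0% of the vector-only promoter peaks (27.9 to 34.2), 15.5% of shared (12.3 to 19.3), 5.41% of PuER-only (4.14 to 6.92), 23.4% of all promoters (22.8 to 23.9) and 1.23% of the windows 2000 bp to either side (0.764 to 1.88). A CCAAT box, read by NFY, lay in 8.69% (6.88 to 10.8), against 11.5% of all promoters (11.1 to 11.9). The CEBP sequence TTGCNNAA lay in 2.70% (1.72 to 4.02), an interval that included the 2.08% of all promoters (1.90 to 2.28). Shared promoter peaks had 6.08%, PuER-only promoter peaks 6.32% and vector-only peaks away from promoters 13.1%. RUNX sequences (TGTGGT or TGCGGT) lay in 6.46% (4.90 to 8.32), within counting error of all promoters at 6.396%, and against 17.3% (15.4 to 19.4) of vector-only peaks away from promoters. Sequences of NRF1 (GCATGCGC), YY1 (AAGATGG), CREB (TGACGTCA), ZNF143 (ACTACAAT) and AP-1 (TGAGTCA) and the E-box CACGTG each lay in under 4% of the class, the E-box being the most frequent with 3.29%.

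**Figure D2:**
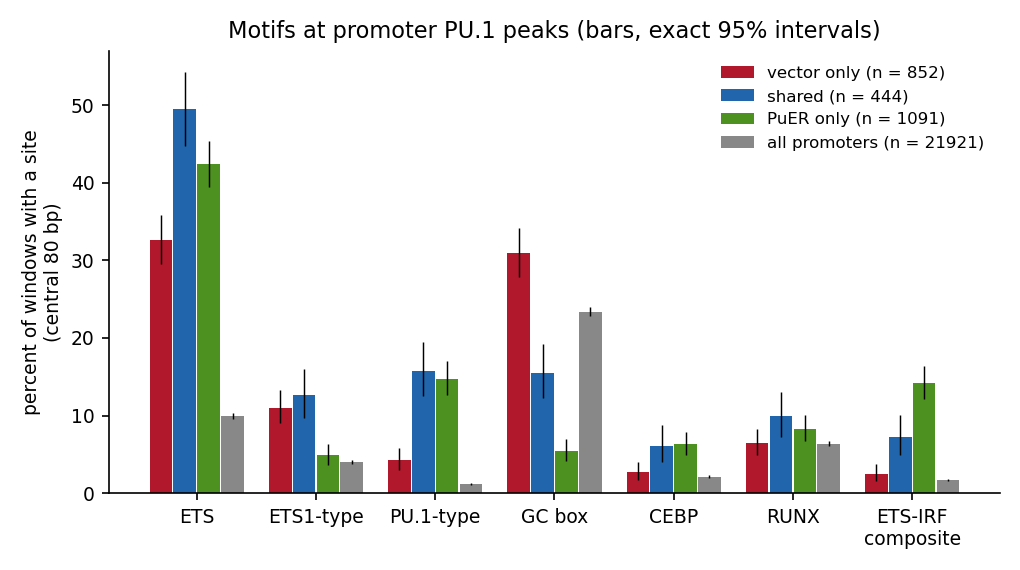
Percent of windows with each sequence in their central 80 bp (vertical axis) for 7 sequences (horizontal axis) in vector-only, shared and PuER-only promoter PU.1 peaks and all promoters; error bars are exact 95% intervals. The vector-only class is low in PU.1-type sites (4.23%) and high in GC boxes (31.0%), whereas PuER-only peaks show 14.8% and 5.41%.

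The vector-only promoter peaks lay in the most CpG-rich sequence of all classes compared. Their median GC content was 63.0% (quartiles 57.7 and 67.5) against 55.8% at shared, 51.3% at PuER-only promoter peaks and 57.5% in all promoters. Their median ratio of observed to expected CpG was 0.803 (0.642 and 0.921) against 0.473, 0.322 and 0.587, and the windows 2000 bp away had 0.1902. Windows with a CpG ratio over 0.6 and GC over 50%, here called CpG-rich, made up 77.5% of the class (74.5 to 80.2), 37.8% of shared (33.3 to 42.5), 19.2% of PuER-only promoter peaks (16.9 to 21.7), 3.48% of vector-only peaks elsewhere (2.60 to 4.55) and 47.5% of all promoters (46.9 to 48.2).

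Since CpG content moved with the classes, the motif shares were also taken within CpG-rich windows alone, a restriction chosen after the data had been seen. An ETS site then lay in 32.6% of 660 vector-only promoter peaks (29.0 to 36.3), 60.1% of 168 shared peaks (52.3 to 67.6), 41.0% of 210 PuER-only peaks (34.2 to 47.9) and 12.1% of 10421 promoters (11.5 to 12.8), and the PU.1 type in 4.39%, 17.9%, 11.9% and 0.892%. For the ETS site the vector-only and PuER-only intervals now overlapped, and that of shared peaks lay above both. A GC box lay in 36.4% of the vector-only class (32.7 to 40.2), 29.8% of shared (23.0 to 37.3), 14.3% of PuER-only peaks (9.85 to 19.8) and 41.8% of all CpG-rich promoters (40.8 to 42.7), so that the vector-only and shared intervals now overlapped, the PuER-only share stayed lower and the excess over all promoters was absent. A CEBP sequence lay in 1.21% of the vector-only class (0.525 to 2.37) and 1.79% of shared peaks (0.370 to 5.13). PuER-only peaks had 3.81% (1.66 to 7.37) and all CpG-rich promoters 1.10% (0.912 to 1.32). For this sequence the vector-only interval overlapped each of the others. Central 80-bp stretches of 2 CpG-rich regions, upstream of Nip7 and in an intron of Plcg2, are given with the ETS site, or its complement ACTTCC, in capitals. Nip7 is needed for ribosome assembly, and Plcg2 codes for a phospholipase of receptor signalling in blood cells.
Nip7 (chr8:107056756-107056835, plus strand): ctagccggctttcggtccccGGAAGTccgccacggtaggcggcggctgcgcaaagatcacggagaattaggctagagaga
Plcg2 (chr8:117498601-117498680, plus strand): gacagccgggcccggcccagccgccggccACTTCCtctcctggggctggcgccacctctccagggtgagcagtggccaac

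The Nip7 window is among the regions with the most ETS sites of the whole class, 4 in 400 bp, with a CpG ratio of 1.02, of which 1 site lies in the stretch printed. The other regions with 4 sites lay at Emg1, Arfip2, Ccdc157, Rps14 and Svil. Emg1 acts in maturation of the small ribosomal subunit, Arfip2 in vesicle traffic, Rps14 is a protein of the small ribosomal subunit, and Svil codes for the actin-binding supervillin. None of the 4 sites at Emg1, Rps14 or Svil lay in the central 80 bp.

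The regions sat almost upon the transcription start. The median signed distance of the centre from the nearest start was −12 bp (95% interval −18 to −8, negative values upstream) and the median absolute distance 77 bp (67 to 87), against 112.5 bp at shared (95 to 139) and 330 bp at PuER-only promoter peaks (288 to 360). Of the 852 centres 57.2% lay within 100 bp, 76.1% within 200 bp and 92.1% within 500 bp of a start, although the rule would have allowed 1000 bp. Among PuER-only promoter peaks, taken by the same limit, 27.9%, 38.9% and 62.7% lay so near. Starts of 2 or more genes on opposite strands lay within 1000 bp in 12.3% (10.2 to 14.7), against 6.31% of shared (4.23 to 8.99) and 4.40% of PuER-only peaks (3.26 to 5.79). A single region lay between Prpf4 and the anaphase-promoting complex gene Cdc26, and others served Psmd13 with the deacetylase gene Sirt3 and Timm10b with Arfip2. At the centre itself the annotation gave no gene in 38.1%, an untranslated exon in 34.5%, an intron in 22.4% and a coding exon in 4.93%. Within the class, regions centred within 100 bp of the start held an ETS site in 37.0% (32.7 to 41.4) and the more distant in 26.8% (22.4 to 31.7).

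**Figure D3:**
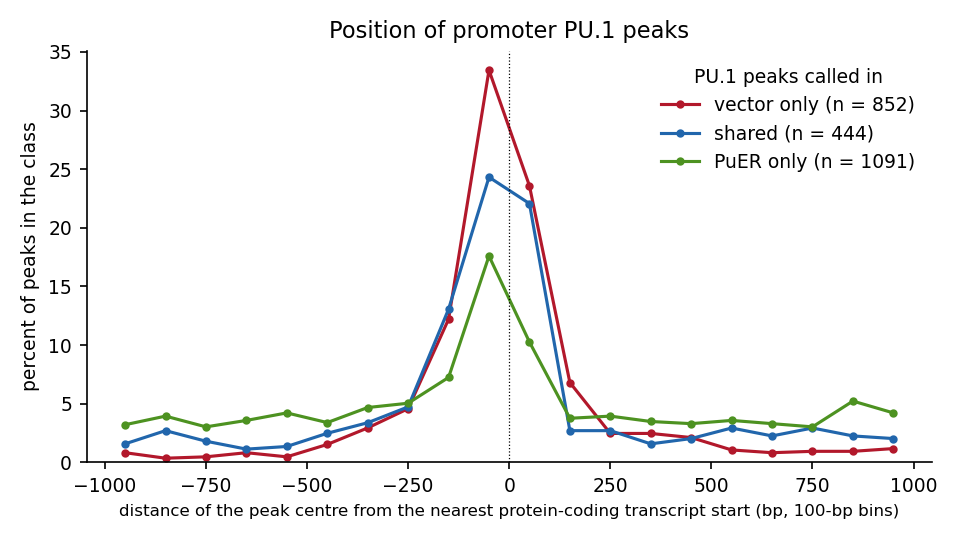
Percent of peaks of each class (vertical axis) by distance of the peak centre from the nearest protein-coding transcript start (horizontal axis, bp, 100-bp bins, negative upstream). The vector-only class is the narrowest, with 57.2% of its centres within 100 bp of the start against 46.4% of shared and 27.9% of PuER-only peaks.

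CEBPA, measured in libraries the choice of regions did not use, was called at fewer of these regions than at vector PU.1 peaks in general. In vector cells 294 of the 852 overlapped a CEBPA peak, 34.5% (31.3 to 37.8), against 57.6% of all vector PU.1 peaks, 42.6% of shared promoter peaks (37.9 to 47.3) and 66.1% of vector-only peaks away from promoters (63.6 to 68.5). PuER-only promoter peaks had a lower share, 19.2% (16.9 to 21.6), so the low share was not particular to the vector-only promoter peaks. In PuER cells 216 of the 852 overlapped a CEBPA peak, 25.4% (22.5 to 28.4), against 51.4% of all vector PU.1 peaks. Shared promoter peaks had 36.3% there (31.8 to 40.9) and PuER-only promoter peaks 22.8% (20.4 to 25.4). Both lines had a CEBPA peak at 205 regions, the vector line alone at 89 and the PuER line alone at 11. This left 547 (64.2%) with none, against 74.3% of PuER-only promoter peaks. Thus 30.3% (25.1 to 35.9) of the CEBPA calls at these regions were lost in the PuER line together with the PU.1 call, against 23.3% at shared promoter PU.1 peaks (17.5 to 29.96), and 27.4% of all promoter CEBPA peaks of the vector line (26.0 to 28.9) were not called in the PuER line. These intervals overlapped. At PuER-only promoter peaks the balance was the opposite, with 31 CEBPA calls in the vector line alone and 71 in the PuER line alone.

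**Figure D4:**
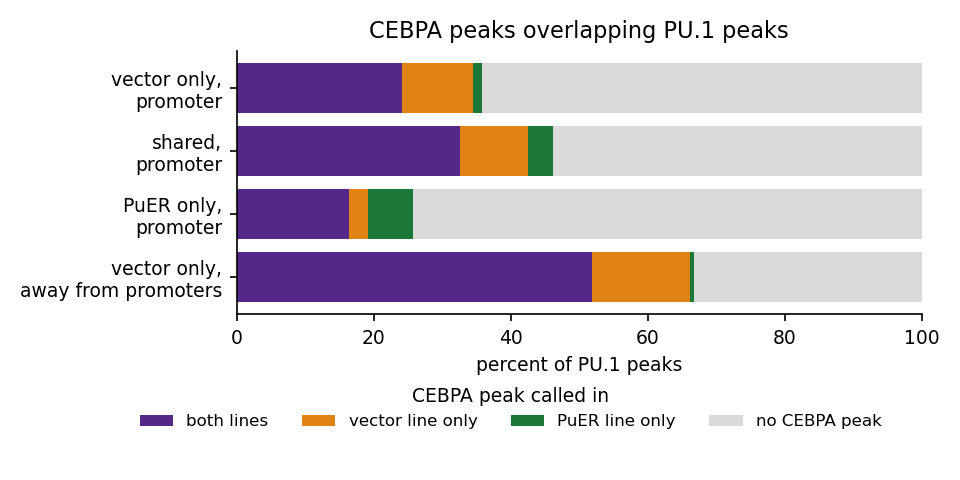
Percent of PU.1 peaks of each class (horizontal axis) that overlap a CEBPA peak in both lines, in the vector line only, in the PuER line only or in neither (stacked segments). Of the vector-only promoter peaks 64.2% overlap none, and CEBPA calls in the vector line only (10.4%) outnumber those in the PuER line only (1.29%).

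Lsm2, Rps25, Eif4e2, Polr2g, Pcna and Mcm4 were among the named genes whose promoter region had a CEBPA peak in the vector line and none in the PuER line. Pcna codes for the sliding clamp of DNA replication, and Mcm4 for a subunit of the replicative helicase. Gins4, a further replication factor, and the chromatin remodeller gene Chd9 had the reverse. Regions with a vector CEBPA peak held an ETS site in 27.2% (22.2 to 32.7) and those without in 35.5% (31.5 to 39.6), and a CEBP sequence in 6.46% (3.94 to 9.91) and 0.717% (0.196 to 1.83). The CEBPA centre lay a median of 61 bp from that of PU.1. Even under the CEBPA peaks themselves a CEBP sequence was uncommon, in 17.4% of the 293 that overlapped these regions (13.2 to 22.2). Of the 188 that overlapped shared promoter PU.1 peaks 23.4% had such a sequence (17.6 to 30.1), an overlapping interval. Promoter CEBPA peaks without vector PU.1 had it in 27.9% of 3342 (26.4 to 29.5). These shares were not matched for CpG content.

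The PuER line had PU.1 peaks elsewhere around many of the same genes. The nearest PuER PU.1 centre lay a median of 20950.5 bp away (quartiles 5692 and 59055 bp), and 35 regions (4.11%) had 1 within 1000 bp without overlap. Of the 948 genes with a start within 1000 bp of the regions, 77.3% (74.5 to 79.95) had a PuER PU.1 peak in the gene or within 50 kb, against 57.3% of all protein-coding genes (56.6 to 57.9), and 90 (9.49%, 7.70 to 11.5) had 1 at a promoter, against 6.83% of all genes (6.50 to 7.17). The rule used the PuER list and removed PuER peaks overlapping the regions, which limits the promoter count of these genes but not that of all genes. Neither comparison was matched for CpG content or tested, so no conclusion is drawn from them. Close to the limits of the rule, Polm was separated from a PuER peak by 1 bp, Itgb5 by 27 bp, Slc25a25 by 30 bp and Arfip2 by 47 bp, whereas Vcpip1, Sp100, Myl12b and Prdx6 were counted as shared with overlaps of 30, 35, 49 and 52 bp. By distance, Lbp (997 bp), Vps9d1 (996 bp), Dnm2 (990 bp) and Cabin1 (985 bp) were just inside, and Bcl11a (1006 bp), Abca1 (1008 bp), Nfkbiz (1024 bp) and Cks2 (1037 bp) just outside.

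A vector-only promoter peak was found at 948 of 21924 protein-coding genes, 4.32%, a shared peak at 2.12% and a PuER-only peak at 4.89%. Of 23 gene lists, spliceosome proteins had the largest share with 10 of 60 genes, 16.7% (8.29 to 28.5), followed by cytosolic ribosomal proteins with 12 of 79, 15.2% (8.10 to 25.03), proteasome subunits with 6 of 40, 15.0% (5.71 to 29.8), ribosome biogenesis factors with 10 of 74, 13.5% (6.68 to 23.5), and DNA repair genes with 10 of 80, 12.5% (6.16 to 21.8). Myeloid genes had 3 of 88, 3.41% (0.709 to 9.64), near the share of all genes, although 15 of the same 88 (17.0%, 9.87 to 26.6) had a shared and 27 (30.7%, 21.3 to 41.4) a PuER-only peak. Interferon-response genes had 3 of 67, 4.48% (0.933 to 12.5), near the share of all genes, with 3 shared and 10 PuER-only. Stem, progenitor and leukaemia genes had 6 of 63, 9.52% (3.58 to 19.6), above the share of all genes but with an interval that included it. Of the same 63, 6 had a shared and 12 a PuER-only peak. Olfactory receptor genes, taken as silent in blood cells, had 0 of 1134 (upper bound of the interval 0.325%), with 3 shared and 12 PuER-only. None of the 1134 had a CpG-rich promoter, so silence and promoter sequence could not be separated in this list. Which of them goes with the absence of vector-only peaks was not tested.

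**Figure D5:**
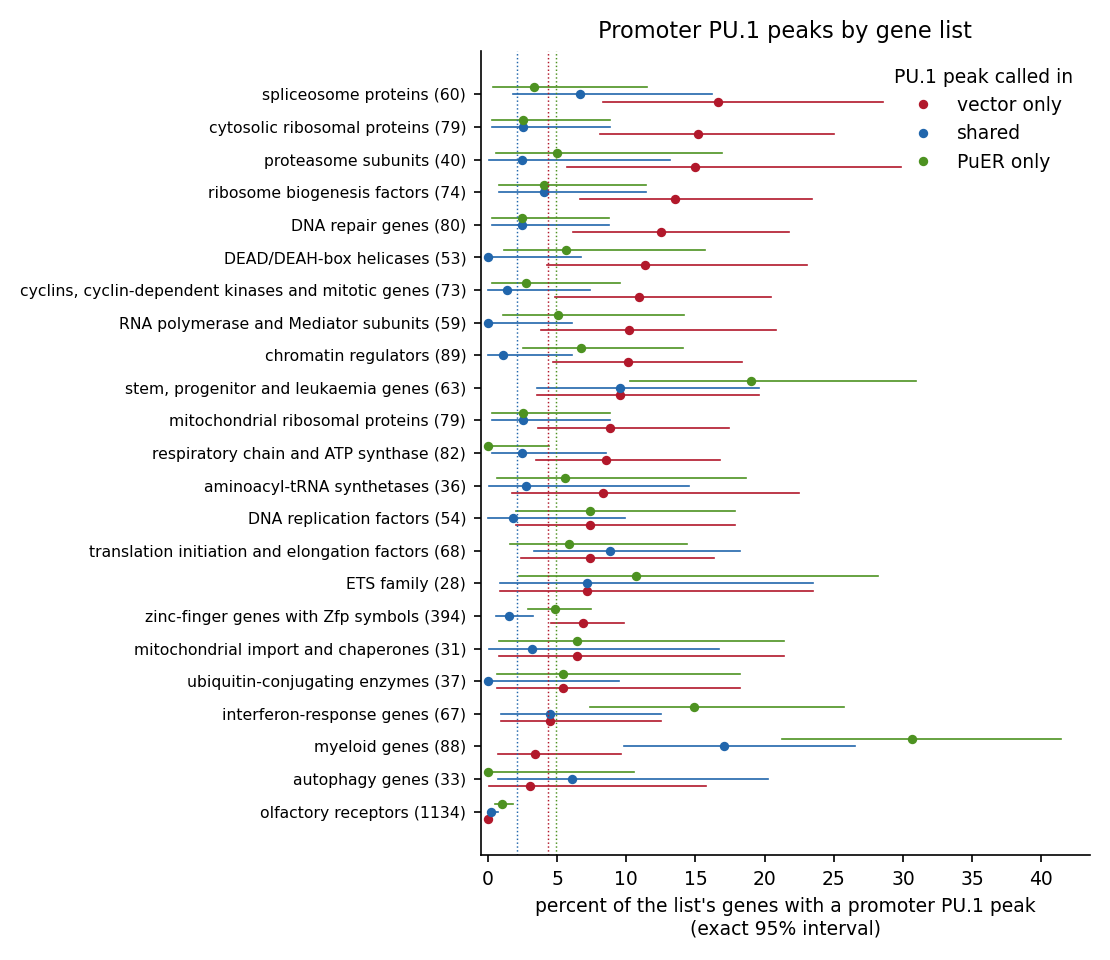
Percent of the genes of each list (vertical axis, list size in brackets) with a vector-only, shared or PuER-only PU.1 peak at a promoter (horizontal axis); lines are exact 95% intervals and dotted lines the share of all protein-coding genes. Spliceosome (16.7%) and cytosolic ribosomal protein genes (15.2%) lead in vector-only peaks, and myeloid genes lead in PuER-only peaks (30.7%).

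Most genes of these lists have CpG-rich promoters, 88.3% of the spliceosome list and 82.3% of the cytosolic ribosomal list against 18.2% of the myeloid list and 47.5% of all genes. Among all genes with a CpG-rich promoter 7.004% (6.52 to 7.51) had a vector-only promoter peak, and among the rest 1.90% (1.65 to 2.16). Within CpG-rich promoters the shares were 18.9% of 53 spliceosome genes (9.44 to 32.0), 16.9% of 65 cytosolic ribosomal genes (8.76 to 28.3), 15.2% of 66 ribosome biogenesis genes (7.51 to 26.1), 13.8% of 65 DNA repair genes (6.53 to 24.7) and 12.1% of 33 proteasome genes (3.40 to 28.2). Only the intervals of the spliceosome, cytosolic ribosomal and ribosome biogenesis lists began at or above 7.51%, the upper bound for all CpG-rich genes; none of these comparisons was tested.

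Among the ribosomal protein genes the regions lay at Rps3 (centre 8 bp downstream of the start), Rpl18 (−12 bp), Rps25 (−27 bp) and Rpl28 (−28 bp), and also at Rpl35a, Rps21, Rpl26, Rpl37, Rplp1, Rps14 and Rpl36a, each within 171 bp of a start. Of the first 4, Rpl18 kept its CEBPA peak in both lines, and Rps3 and Rpl28 had none. The spliceosome genes were Prpf4 (−12 bp), Lsm2 (−21 bp), Snrpd1 (21 bp) and Lsm8 (−33 bp), which code for small nuclear ribonucleoprotein components, and Sf3a1, Snrnp70, Snw1, Srsf1, Cdc5l and Sf3b3. Ribosome biogenesis was represented by Emg1 (5 bp), Noc2l (−7 bp), Brix1 (−17 bp) and Nol11 (20 bp), with Ebna1bp2, Noc4l, Noc3l, Ppan, Nip7 and Rrs1. Of these Noc2l carried the sequence CCGGAAGT printed above, 14 bp from the peak centre.

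The proteasome genes were Psmd9 (−2 bp), Psmb1 (11 bp), Psmd7 (26 bp) and Psmd13 (−51 bp), with Adrm1 and the immunoproteasome gene Psmb10, and none of the first 4 had a CEBPA peak in either line. DNA repair genes included Pms1 (−4 bp) of mismatch repair, the helicase gene Wrn (−5 bp), the damage kinase gene Atm (−7 bp) and the glycosylase gene Neil1 (8 bp), of which Atm and Neil1 had a CEBPA peak in both lines. Transcription itself was represented by Polr2a (−10 bp), the largest subunit of RNA polymerase II, by Med18 (−37 bp) of the Mediator and by Polr2g (−58 bp), a further subunit of that polymerase. Their list had 6 of 59 genes, 10.2% (3.82 to 20.8), an interval that included the 4.32% of all genes. In the cell-cycle list Anapc4 (41 bp) and Cdc26 (−143 bp) belong to the anaphase-promoting complex, Ccng1 (158 bp) codes for cyclin G1 and Cdk2 (−163 bp) for a kinase of S-phase entry. The respiratory chain list had Atp5c1 (−18 bp), Atp5d (−38 bp) and Ndufs7 (−53 bp) among 7 of 82 genes, and mitochondrial ribosomal proteins Mrpl18 (−18 bp), Mrps9 (−29 bp), Mrpl1 (−36 bp) and Mrps18b (−170 bp) among 7 of 79.

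DEAD/DEAH-box helicases had 6 of 53 genes, 11.3% (4.27 to 23.0), including Ddx51 (3 bp) and Ddx46 (−20 bp), beside 4.32% of all genes. Chromatin regulators had 9 of 89, 10.1% (4.73 to 18.3), including Chd1l (4 bp) and Chd9 (−26 bp). The Zfp zinc-finger genes had 27 of 394 (6.85%, 4.56 to 9.81), including Zfp691 (−4 bp) and Zfp445 (10 bp). Within CpG-rich promoters the shares were 12.5%, 10.9% and 8.04%, with intervals that included the 7.004% of all CpG-rich genes. DNA replication factors had 4 of 54 (7.41%), among them Rfc1, whose start coincided with the peak centre. Translation factors had 5 of 68 (7.35%), led by Eef1d (1 bp), and aminoacyl-tRNA synthetases 3 of 36 (8.33%), led by Tars (3 bp). Ubiquitin-conjugating enzymes had 2 of 37 (5.41%), mitochondrial import and chaperones 2 of 31 (6.45%) and autophagy genes 1 of 33 (3.03%), namely Atg5. From the replication factors on, the interval of each list included the 4.32% of all genes.

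The myeloid genes were Clec4d (−12 bp), a C-type lectin receptor of macrophages and neutrophils, Gfi1 (−119 bp), a repressor needed for neutrophils, and Plcg2 (349 bp, in an intron). Clec4d and Gfi1 had CEBPA peaks in both lines and Plcg2 in neither; the site at Plcg2, 8 bp from the centre, was of the PU.1 type. The stem and leukaemia list held Hhex (18 bp), Smc3 (−113 bp), Idh1 (−216 bp) and Stag2 (−424 bp), with Runx1 and Rara, and the ETS family itself Elf2 (−9 bp) and Etv6 (−139 bp), both without CEBPA. These were 2 of 28 ETS family genes, 7.14% (0.877 to 23.5), an interval that included the 4.32% of all genes. Interferon-response genes were Isg20 (98 bp), Nlrc5 (−153 bp), the transactivator of MHC class I genes, and Psmb10 (374 bp). Of the genes the study followed, Spi1 and Lyl1 had a shared and Elf1 and Evi2a a PuER-only promoter peak, Cd14 and Cebpa had no promoter peak in any class, and none of these 6 was in the vector-only set.

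Counted by region, 741 lay at 1 gene, 109 at 2 and 2 at 3 or more. Counted by gene, most had a single region, and 16 of the 948 genes had 2 or more. The largest numbers were at Sept2 with 4, shared in part with the divergent gene Hdlbp, and at Ankrd28 with 3.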

How the data were processed

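Alignment to mm10 was done by the authors with Bowtie2 (version 2.0.6) and peak calling with MACS2 (version 2.0.10), as named in the submitters' processing notes; the threshold, the control and the step that gave every peak a width of 400 bp are not given in the sources used here. The deposited lists hold chromosome, start and end alone, with no count, score or signal, for 4 of 8 samples, 1 library per antibody and line. Peaks sharing at least 1 base counted as shared. Promoters were starts of GENCODE M21 transcripts typed protein-coding; sequence came from GRCm38 (Python 3.11.15, pysam 0.24.0, samtools 1.23.1). Motifs were exact matches on both strands in the central 80 bp or all 400 bp. Overlap classes, promoter positions and planted motifs were checked on simulated data and the classes against bedtools 2.31.1. The regions, gene lists and motifs were chosen with earlier results of these data known. Named genes were, per list, up to 4 with the peak centre nearest a start, the 6 regions with most ETS sites, 6 genes followed by the study, and regions next to the limits; further list genes are given by name only, and a few list genes are not reported here. Of the listed symbols 4 were not matched. No test between lines was possible. Alternatives covered promoter limit, overlap, starts, chromosomes, windows and motif letters.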

Additional observations from a re-analysis of the deposited data

How the results depend on the processing

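Of 364 values recomputed under other settings 316 stayed within the interval of the reported value or, for counts, within 1.5 times. Counts of list genes made up 184 of the 364, and 178 of these stayed within 1.5 times, a wide limit. Restriction to chromosomes 1 to 19 and X kept all 852 regions, so its values could not move and say nothing about stability. The number of regions ran from 731 with 1 start per gene to 979 with a promoter limit of 2500 bp. That limit moved the CEBPA share to 37.9%, the GC box share to 27.7%, the median distance from the start to 101 bp and the median CpG ratio to 0.770; a limit of 500 bp gave 65.0 bp and 1 start per gene 99.0 bp, as the construction of these limits implies. Wider windows gave ETS shares of 49.9% (200 bp) and 58.6% (400 bp) and GC box shares of 54.6% and 71.0%, and the letters GGAA and CCGGAAGT alone gave 77.5% and 5.99%. Restriction to CpG-rich windows, chosen after seeing the data, gave a GC box share of 36.4% and left the ETS share at 32.6%; 730 of the 948 genes had a CpG-rich promoter. CEBPA overlap of at least 50% of both peaks gave 29.6% and centres within 100 bp 23.1%. PuER peaks assigned within 20 kb and 100 kb gave 61.1% and 89.7% of genes. The ETS share was below that of shared promoter peaks under 12 of 13 settings, the exception being CCGGAAGT alone (5.99% against 3.38%), and the PU.1-type share under all 11, at 3.88% to 7.39% against 14.1% to 23.6%. Both counts of settings include the reported setting and the chromosome restriction, which gave identical values. No paired analysis was possible because each group is 1 library. Depth is unknown, so a call missing from a list sets no upper limit on binding.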
